A study of Drosophila melanogaster with 4 samples.

Results

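The heat shock loci of Drosophila melanogaster were examined for RNA polymerase II phosphorylated on serine 5 of its C-terminal repeats in CME-W1-Cl.8+ cells. The polymerase was mapped by ChIP-seq, in which fixed chromatin is pulled down with an antibody and its DNA sequenced. The loci were chosen by position, as 5 intervals on FlyBase release 5 that hold 9 genes. They are the Hsp70A pair (Hsp70Aa and Hsp70Ab), the Hsp70B group (represented by Hsp70Ba), the small Hsp genes at 67B (Hsp22, Hsp23, Hsp26 and Hsp27), Hsp83 and the non-coding gene lncRNA:Hsromega, called hsr-omega below. Every enriched region, or cluster, that overlapped an interval was taken. These numbered 18 of 5091 clusters in ChIP replicate 1, 15 of 4876 in ChIP replicate 2 and 16 of 5309 in the combined list of the series.

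The cells are a male line, also called Clone 8, that the labels trace to the dorsal mesothoracic disc (the wing disc) of larvae in the third instar. All were fixed in 1.8% formaldehyde for 10 min, and 2 ChIP libraries (antibody ab5131, from rabbit) and 2 input libraries were prepared. All samples are of 1 condition, with no genotype, drug or temperature contrast. The labels name no heat shock, and the files used here hold no measure of stress or of RNA, so the unstressed state of the cells was not checked. The wing disc origin was not checked against markers either, because clusters could not be assigned to genes.

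Heat shock genes are a classic case of genes held ready for induction. At Hsp70 and the small Hsp genes of flies, an engaged polymerase with phosphorylated serine 5 is known to wait just downstream of the start before any stress, and heat shock factor then releases it. Hsp83 and hsr-omega are also transcribed without stress and rise further on heating.

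The lists give positions and the authors' score of each cluster but no read counts, so the depth of the libraries is unknown. The scale of the score is not stated, so scores are set side by side within a list and ranks between lists. The gene table at hand follows release 6. It served for names and gene order only, and no cluster was placed on a single gene. A cluster in an interval may therefore belong to a neighbour of the heat shock gene. The Hsp70 copies are near-identical genes, and how reads that match several copies were placed is not stated, so clusters at Hsp70A and Hsp70B are uncertain in that respect. The labels do not tell whether each replicate came from its own culture, and the spread between replicates may be technical. With 1 condition and 2 ChIP libraries, no test between samples was possible, and no p-value is given.

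All 5 intervals held clusters in both replicates. This was also so for 42.5% of windows of 14 kb on 3L and 3R (the width of the Hsp83 interval), 47.5% of windows of 18 kb (hsr-omega), 54.9% of 25 kb (Hsp70A), 65.1% of 40 kb (67B) and 76.0% of 60 kb (Hsp70B), so presence alone sets the loci little apart. The loci differed in how high their clusters stood. Of the 18 clusters in replicate 1, 15 scored above the median of the list and 13 were wider than its median, against 50.0% of all clusters by construction. In replicate 2 these were 13 and 11 of 15. The median score of the heat shock clusters was 1.92 in replicate 1 and 2.12 in replicate 2, against 1.18 and 1.19 for the whole lists. Their median width was 4.26 and 4.53 kb, against 2.53 and 2.60 kb.

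**Figure D1:**
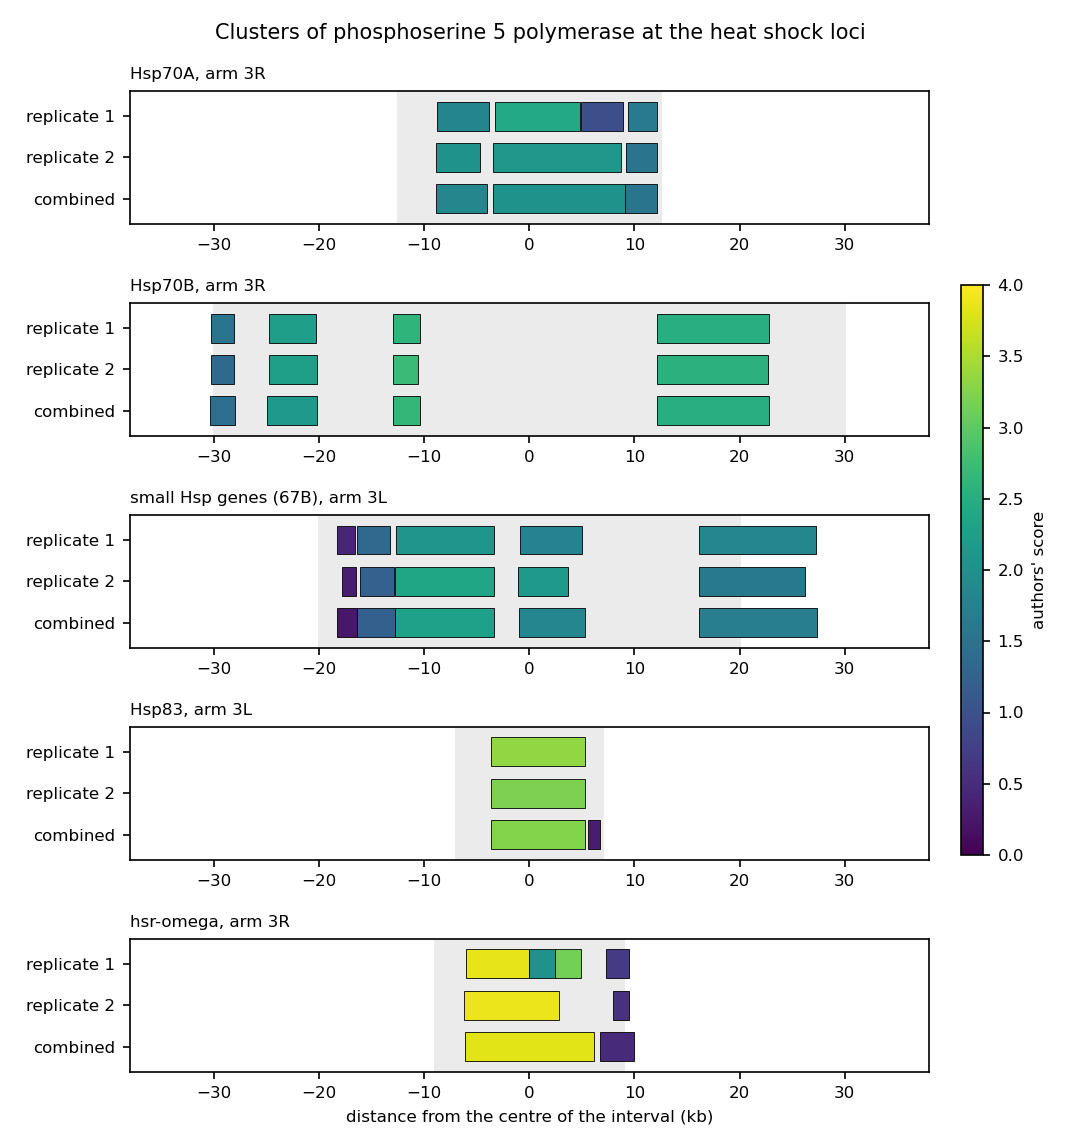
Clusters at the 5 heat shock loci in each replicate and in the combined list, by distance from the centre of each interval (kb). Grey shading marks the interval, each box is 1 cluster, and colour gives the authors' score; hsr-omega and Hsp83 hold the boxes with scores above 3, and the Hsp70B interval has a gap of 22.5 kb in replicate 1.

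Ranked by the highest score in each interval, the loci stood in the order hsr-omega, Hsp83, Hsp70B, and then Hsp70A and 67B. Each place is that of the best of 1 to 5 clusters, in intervals of 14 to 60 kb. An interval with more clusters had more chances of a high place, and windows of the same width were not ranked in this way. The best hsr-omega cluster was 9th of 5091 in replicate 1 and 10th of 4876 in replicate 2. The best Hsp83 cluster was 31st and 44th, and the best Hsp70B cluster 235th and 197th. The best Hsp70A cluster was 366th and 709th, and the best 67B cluster 690th and 404th. As a share of the list counted from the top, these are 0.191 ± 0.0200% for hsr-omega, 0.756 ± 0.208% for Hsp83 and 4.33 ± 0.407% for Hsp70B (SD, n = 2). For Hsp70A and 67B they are 10.9 ± 5.20% and 10.9 ± 3.72% (SD, n = 2). The replicate ranges of Hsp70A and 67B overlapped, so these loci were not separated. Those of all other pairs of loci did not overlap, which with n = 2 is a description and not a test.

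**Figure D2:**
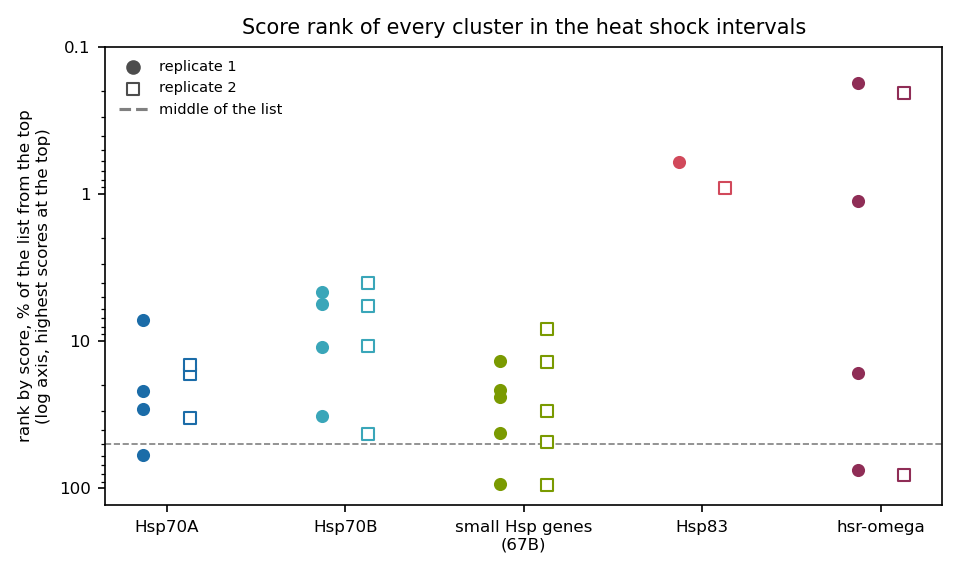
Rank by score of every cluster in the 5 intervals, as a percentage of its list from the top (log axis), with filled circles for replicate 1 and open squares for replicate 2; the dashed line is the middle of the list. The best hsr-omega clusters lie at 0.177% and 0.205% and the best Hsp83 clusters at 0.609% and 0.902%, above every cluster of the other 3 loci in both replicates.

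The gene hsr-omega makes a non-coding RNA whose nuclear form gathers RNA-binding proteins of the hnRNP family into omega speckles and which is among the most active loci on heating. Its release 5 interval, 3R from 17118000 to 17136000, held a strong block of clusters and a weak one. In replicate 1 the strong block was 3 clusters that nearly touched. The first ran from 17120988 to 17126951 with a score of 3.85, the second from 17127005 to 17129460 with 2.00, and the third from 17129500 to 17131958 with 3.14. The gaps between them were 53 and 39 bp, against a median gap of 5.49 kb between clusters on the 5 large arms.

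In replicate 2 the strong block was a single cluster of 9000 bp from 17120791 to 17129790, with a score of 3.88. The combined list had a single cluster of 12.3 kb from 17120854 to 17133202, with a score of 3.82. Both replicates thus held the left part of the block, but they differed in the right part. The third cluster of replicate 1 stood 57th of 5091 by score, yet only 11.8% of its width was covered by replicate 2. Of the 57 replicate 1 clusters that scored at least as high, it was the only 1 covered by so small a share, and the median of the 57 was 99.7%. This cluster was singled out after its values had been seen, and the cause of the difference was not tested.

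The weak block lay at the right edge of the hsr-omega interval. It ran from 17134274 to 17136462 in replicate 1, with a score of 0.69, and from 17134998 to 17136521 in replicate 2, with 0.56. It lay in the lower part of both lists, at 74.6% and 81.7% from the top. Beyond it the next cluster was 37.4 kb away in replicate 1 and 37.5 kb in replicate 2, whereas the combined list had a weak one, with a score of 0.33, at 5.93 kb. In the gene order of release 6, CG17298 and SIFaR precede hsr-omega and aus follows it.

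Hsp83 encodes the fly Hsp90, an abundant chaperone for kinases and steroid receptors that cells make at normal temperature. Its interval, 3L from 3188000 to 3202000, held 1 cluster in each replicate, and the agreement of the edges was close. The cluster ran from 3191366 to 3200292 in replicate 1 and from 3191366 to 3200297 in replicate 2, so the starts were the same base and the ends differed by 5 bp. Among the 3927 one-to-one pairs (clusters that overlapped only each other), 42 (1.07%) had both edges at least this close, and the median of the larger edge difference was 126 bp. The first Hsp70B cluster was also among the 42, with starts 5 bp and ends 3 bp apart, so such close edges were not particular to Hsp83. The score was 3.33 in replicate 1 and 3.20 in replicate 2.

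The Hsp83 cluster was 8.93 kb wide in both replicates, in the widest 5.70% of each list. In release 6 order its neighbours are CG14965 on one side and CG14966, CG32276 and gry on the other, so a cluster of this width may cover more than Hsp83. The combined list added a narrow cluster of 1.16 kb from 3200598 to 3201752, with a score of 0.31, that neither replicate held. The nearest clusters lay 11.3 kb before the Hsp83 cluster in either replicate. After it they lay 17.5 kb (replicate 1) and 17.6 kb (replicate 2) away. Such distances were not rare, as 35.6% of gaps on the 5 large arms in replicate 1 were at least 11.0 kb long. The hsr-omega clusters lay further from their neighbours in replicate 1, at 20.5 kb before and 37.4 kb after.

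Both hsr-omega and Hsp83 were also high for their width. Among the 864 clusters at least 5 kb wide in replicate 1, the first hsr-omega cluster ranked 1st and Hsp83 12th, and among 891 in replicate 2 they ranked 2nd and 11th. The median score of these wide clusters was 1.70 and 1.65. The widest Hsp70B cluster ranked 80th and 61st in the same comparison. The widest Hsp70A cluster ranked 100th and 208th, and the third 67B cluster 211th and 99th. Other 67B clusters of at least 5 kb ranked lower. That minimum of 5 kb was chosen after the values had been seen.

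**Figure D3:**
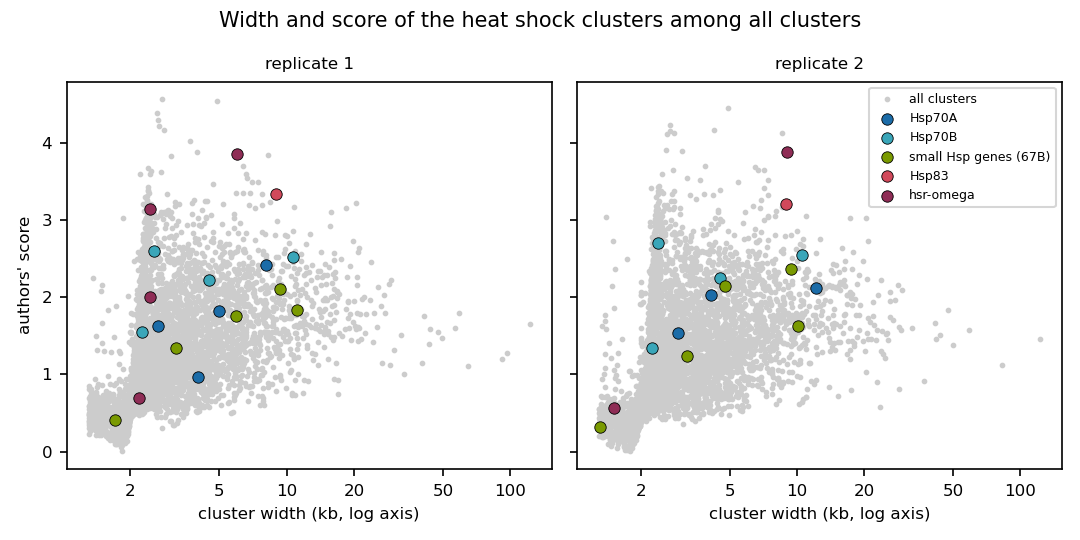
Cluster width (kb, log axis) against the authors' score for all clusters (grey) and for the clusters of the 5 heat shock loci (coloured), with replicate 1 on the left and replicate 2 on the right. The widest hsr-omega cluster (scores 3.85 and 3.88) and the Hsp83 cluster (3.33 and 3.20) stand near the upper edge of the wide clusters. Every Hsp70A and 67B cluster scored below these.

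The Hsp70 genes encode the main heat-inducible chaperones of the fly, which bind unfolded proteins. Hsp70B is the group at 87C, where release 6 gives the order CG5608, Hsp70Ba, the alphagamma-element (a heat-inducible non-coding RNA), Hsp70Bbb, Hsp70Bb and Hsp70Bc. Its interval, 3R from 8285000 to 8345000, held 4 separate clusters in each list, with no cluster split or merged between the lists. In replicate 1 they ran from 8284722 to 8286965, from 8290233 to 8294743, from 8302064 to 8304609 and from 8327146 to 8337845. Their scores in that order were 1.55, 2.22, 2.60 and 2.52 in replicate 1 and 1.35, 2.24, 2.70 and 2.55 in replicate 2.

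The lowest of the 4 clusters was thus the first, at the left edge of the interval, in both replicates. The highest was the third, which was narrow (2.55 kb in replicate 1 and 2.39 kb in replicate 2). The fourth was broad (10.7 and 10.6 kb) and stood 284th and 279th by score. Its place in the list, counted in percent from the top, was 5.58% and 5.72%. For the second cluster it was 10.9% and 10.8%, and for the first, which differed most of the 4, it was 32.5% and 42.8%. All one-to-one pairs differed by a median of 4.96 percentage points. The last 2 were 22.5 kb apart in replicate 1 and 22.7 kb in replicate 2, and after the fourth no cluster followed for 111 kb in either replicate. Before the first, by contrast, a cluster lay within 1.38 kb in both. Release 6 lists the octopamine receptor gene Octbeta3R directly after the Hsp70B group.

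Hsp70A is the pair at 87A, where release 6 places Hsp70Aa and Hsp70Ab side by side between CG31211 and CG3281, with the mitotic kinase gene aurA next. Its interval, 3R from 7770000 to 7795000, had the highest covered share of the 5 in both replicates. In the combined list hsr-omega was higher, with 81.5% against 81.0%, and in covered length 67B was highest in each list, with 24.0, 22.6 and 25.1 kb against 19.7, 19.3 and 20.2 kb at Hsp70A. In replicate 1 it held 4 clusters, from 7773695 to 7778690 with a score of 1.82, from 7779263 to 7787328 with 2.42, from 7787410 to 7791417 with 0.96, and from 7791940 to 7794607 with 1.63. In replicate 2 it held 3, from 7773674 to 7777783 with a score of 2.03, from 7779039 to 7791269 with 2.12, and from 7791679 to 7794610 with 1.54.

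The replicates differed at Hsp70A in the middle. The cluster of 12.2 kb in replicate 2 was a cluster of 8.07 kb and one of 4.01 kb in replicate 1, with a gap of 81 bp between them. The left piece stood at 7.19% and the right piece at 59.8% from the top of replicate 1, whereas the undivided cluster stood at 14.5% in replicate 2. The combined list had it undivided, with a width of 12.5 kb and a score of 2.04. Before the first cluster of the interval no other was listed for 59.6 kb in either replicate.

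The small Hsp genes at 67B encode chaperones of the alpha-crystallin family, which hold unfolding proteins in solution. Hsp22 acts in mitochondria and Hsp27 in the nucleus, and Hsp23, Hsp26 and their neighbours also answer to ecdysone, the molting hormone. Release 6 gives the order Hsp67Bc, Hsp22, Hsp26, Hsp67Ba, Hsp23 and Hsp27, with a few other genes between them, Fdx1 before and CG4080 and the translation factor gene eIF4E1 after. The interval, 3L from 9355000 to 9395000, held 5 clusters in each list. In replicate 1 they ran from 9356728 to 9358427, from 9358609 to 9361803, from 9362299 to 9371607, from 9374121 to 9380060 and from 9391105 to 9402233. Their scores were 0.41, 1.34, 2.10, 1.76 and 1.83 in replicate 1 and 0.32, 1.23, 2.36, 2.14 and 1.62 in replicate 2.

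The third cluster of 67B was the highest in both replicates with widths of 9.31 and 9.39 kb. The replicates placed its left edge 26 bp apart and its right edge 51 bp apart. The fourth was less alike, since it was 5.94 kb wide in replicate 1 but 4.75 kb in replicate 2 and the right edges lay 1359 bp apart. Between the fourth and the fifth lay 11.0 kb in replicate 1 and 12.4 kb in replicate 2 without a cluster. The fifth reached 7.23 kb past the interval in replicate 1 and 6.26 kb in replicate 2. The first was near the bottom of both lists, at 93.0% and 95.3% from the top. Around 67B there were clusters within 2.36 kb on its left and within 1.48 kb on its right in both replicates. Each of the other loci had a longer empty stretch on one side or both. The longest per locus ranged from 17.5 kb (Hsp83) to 111 kb (Hsp70B) in replicate 1. The share of gaps as long as these was not computed.

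The share of the interval covered by clusters was 78.0 ± 1.32% at Hsp70A, 63.8 ± 0.0253% at Hsp83, 62.8 ± 10.2% at hsr-omega, 58.2 ± 2.63% at 67B and 32.6 ± 0.336% at Hsp70B (SD, n = 2). The replicate ranges of hsr-omega overlapped those of Hsp83 and 67B, and no other pair of loci overlapped. Hsp70A stood apart from windows of its width on 3L and 3R more than the others did, with 1.76% of windows covered at least as much in replicate 1 and 1.86% in replicate 2. For 67B these were 2.98% and 3.66%, for Hsp83 5.93% and 5.61%, for hsr-omega 3.95% and 7.24%, and for Hsp70B 14.1% and 13.6%. The order by covered share thus differed from the order by score. The intervals were set around genes of unequal spacing, and the windows include gene-poor sequence, so these shares describe the intervals and are not a test.

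**Figure D4:**
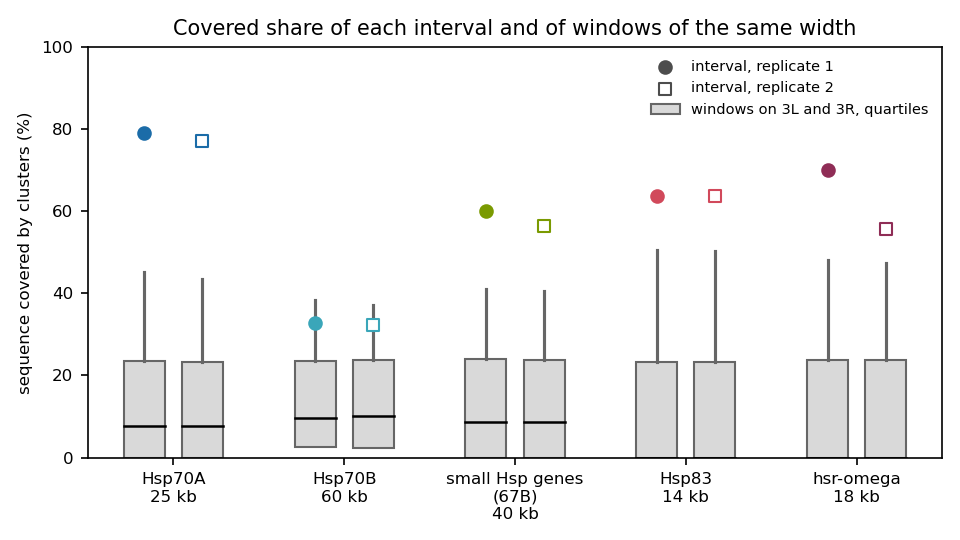
Percentage of sequence covered by clusters in each interval (circles, replicate 1; squares, replicate 2) and in windows of the same width on 3L and 3R. Grey boxes are the quartiles of the windows, black lines their medians and vertical lines reach the 90th percentile; Hsp70B (32.9% and 32.4%) is the only interval below it.

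Every cluster in the 5 intervals overlapped one of the other replicate by at least 1 bp, 18 of 18 from replicate 1 and 15 of 15 from replicate 2. The shares over all clusters were nearly as high, 91.6% in replicate 1 and 94.6% in replicate 2. With reciprocal overlap of 50%, 6 of 7 clusters at Hsp70A, 4 of 6 at hsr-omega and every cluster at the other loci were found. The share over all clusters was not computed under this stricter rule, so these counts have no baseline. Agreement was not the same at each locus. The Jaccard index of covered bases was 0.999 at Hsp83, 0.975 at Hsp70B, 0.919 at Hsp70A, 0.888 at 67B and 0.753 at hsr-omega, against 0.840 over the whole lists. At hsr-omega, 2.89 kb were covered in replicate 1 only and 0.289 kb in replicate 2 only. The index was thus lowest at the locus with the highest score, but among clusters in the upper 50% by score it was lower at Hsp70A (0.735) than at hsr-omega (0.780). Among the 13 one-to-one pairs at these loci, the larger edge difference ranged from 5 to 1359 bp, with a median of 261 bp against 126 bp for all 3927 pairs. Their score ranks differed by a median of 5.03 percentage points, close to the 4.96 of all pairs, and 8 of the 13 ranked higher in replicate 1 and 5 in replicate 2.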

How the data were processed

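ChIP and input libraries of CME-W1-Cl.8+ cells were grouped by their titles. The submitters' processing notes name Bowtie 0.12.7 as aligner. The region caller, its threshold, the treatment of reads with several matches and the making of the combined list are not stated in the sources at hand. The deposited lists give each region's release 5 position and a score, which is the authors' own value, per the file headers and values. Regions that the lists do not mark as depleted were used, and no depleted region lay in an interval. The input libraries entered only as the authors may have used them.

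Clusters were taken at an overlap of at least 1 bp with an interval. Scores and widths were ranked within each list, and windows were tiled over 3L and 3R without overlap. Gaps between clusters were taken on the 5 large arms. Named genes are the 9 members, all found in the reference table of release 6, and, by name only, their neighbours in gene order. Members and lists were chosen with earlier results of these data known. The planned scan of promoters and proteins was not made, as no sequence table was used here. Overlap, coverage and rank functions were tested on simulated data. Alternatives covered cluster midpoints, the upper 50% of each list by score, merging within 1 kb, intervals widened by 5 kb, reciprocal overlap of 50%, ranking by width, the large arms alone, the combined list and each replicate alone. Python 3.11.15, numpy 2.4.6, pandas 2.3.3 and matplotlib 3.10.9 were used.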

Additional observations from a re-analysis of the deposited data

How the results depend on the processing

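There were 115 alternative values for 25 results. Of these, 35 say nothing about stability: 20 leave out a replicate of coverage or percentile, which with 2 replicates cannot move by 1 SD, and 15 are shares found, whose exact intervals are very wide. Among 70 other values, 16 moved by at least 1 SD or, for numbers of clusters, past 1.5 times. The 10 Jaccard values have no replicate spread, and 6 changed. Ranking by width in place of score moved the best place in the list to 4.91% (Hsp70A), 3.93% (67B), 5.70% (Hsp83) and 8.92% (hsr-omega) from the top, so the order of the loci by score was not their order by width. Merging clusters within 1 kb gave 1.5 clusters at Hsp70A and 3 at 67B, 20.3 kb covered at Hsp70A, and Jaccard indices of 0.939 (Hsp70A), 0.918 (67B) and 0.760 (hsr-omega). The upper 50% of each list gave 17.5 kb covered at Hsp70A and 21.8 kb at 67B, and Jaccard indices of 0.735, 0.901 and 0.780 at Hsp70A, 67B and hsr-omega. By construction it drops the weak piece of Hsp70A in replicate 1, the first cluster of 67B and the weak block of hsr-omega. The combined list gave 20.2, 19.9, 25.1, 10.1 and 14.7 kb covered at Hsp70A, Hsp70B, 67B, Hsp83 and hsr-omega, 2 clusters at Hsp83 and a place of 3.64% for Hsp70B. No paired analysis was possible because the input libraries have no list here, so no groups were compared. The cause of these shifts was not tested beyond what construction sets.

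Leaving out each replicate gave 3 to 4 clusters at Hsp70A and 2 to 4 at hsr-omega, and places of 7.19 to 14.5% for Hsp70A and 8.29 to 13.6% for 67B. With reciprocal overlap of 50%, 6 of 7 clusters at Hsp70A and 4 of 6 at hsr-omega were found in the other replicate, with no share over all clusters to set beside them. Depth is unknown, and whether weak clusters are listed depends on the authors' threshold. The right block of hsr-omega was listed in both replicates, whereas the weak Hsp83 cluster was in the combined list only.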
